A study of Mus musculus with 24 samples.

Results

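The nuclear-encoded subunits of oxidative phosphorylation were described in the livers of 24 mice. A gene was a member if its name on the array starts with Nduf followed by a, b, c, s or v and a digit, with Uqcr, with Cox4 to Cox8 or with Atp5, or is Sdha, Sdhb, Sdhc or Sdhd. It also needed a probe called well above background by the scanner software on at least 6 of the 24 arrays. Of 84 names that matched, 83 passed, among 23990 genes tested in all; Cox8c, the testis isoform of cytochrome c oxidase subunit 8, did not pass. The members comprised 35 genes of complex I, 4 of complex II, 8 of complex III, 18 of complex IV and 18 of complex V. The choice used names and brightness and no difference between groups.

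The mice were wild-type C57Bl/6J males aged 8 weeks, raised on Safe 04 chow and killed at ZT16, 16 hours after the lights came on. A group of 6 mice was fasted for 24 hours. Another 6 were fed and drank 20% glucose in tap water for 24 hours, 6 were fed and drank 20% fructose, and 6 were fed with plain tap water. All groups share strain, sex, genotype and diet, and each array holds the liver RNA of 1 mouse.

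Oxidative phosphorylation transfers electrons from NADH through complex I, and from succinate through complex II, to coenzyme Q, then through complex III and cytochrome c to complex IV, which reduces oxygen. Complexes I, III and IV pump protons out of the mitochondrial matrix, and complex V, the ATP synthase, uses their return to make ATP. The liver relies on this system in fasting, when fatty acid oxidation feeds it and gluconeogenesis consumes its ATP; the subunits come from both the nuclear and the mitochondrial genome, and several complex IV subunits have separate isoforms for liver, heart and skeletal muscle, lung or testis.

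The name rule does not coincide with the complexes at every gene. Atp5s, coupling factor B (Dmac2l in RefSeq), is no core subunit of the ATP synthase; Atp5sl, which RefSeq names Dmac2, is known as a complex I assembly factor; Atp5c1-ps is a pseudogene of the gamma subunit whose signal may include that of Atp5c1. Cox7a2l is a respiratory supercomplex factor related to subunit 7a. Ndufa4 and its paralogue Ndufa4l2 were counted with complex IV. Set apart from these and from 7 tissue-restricted or induced isoforms (Cox4i2, Cox6a2, Cox6b2, Cox7a1, Cox7b2, Cox8b and Ndufa4l2), 72 members are standard subunits of the liver enzyme. Cyc1, Ndufab1, Cycs, Usmg5, Atpif1 and the mitochondrially encoded subunits lie outside the name rule and are described separately.

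Promoters and probes are shown for the members on which the results turn, chosen after their values were seen. Promoter sequences are from RefSeq on GRCm38.p6, 250 bases before to 50 bases after the annotated start, each on the strand of its gene. Cox6b2 and Atp5s had the highest fold changes with fasting, Sdhd and Atp5g3 hold the oestrogen-related receptor motif described below, and Cox6a1 holds the NRF1 motif and was not called. Capitals mark the motifs searched, on either strand. In Cox6b2 and Atp5s the capitals are an Sp1 motif, GGGGCGGGG; in Sdhd and Atp5g3 they are the receptor motif, TCAAGGTCA, and the looser NRF1 motif, GCGCNTGCG; in Cox6a1 they are NRF1 motifs.
Cox6b2 promoter, chr7:4753045-4753344, minus strand: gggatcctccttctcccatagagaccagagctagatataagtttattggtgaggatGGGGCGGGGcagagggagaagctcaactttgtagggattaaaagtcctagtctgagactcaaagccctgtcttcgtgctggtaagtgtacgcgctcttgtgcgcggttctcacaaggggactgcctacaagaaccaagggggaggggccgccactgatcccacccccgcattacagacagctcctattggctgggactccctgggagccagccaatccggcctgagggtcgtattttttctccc
Atp5s promoter, chr12:69724695-69724994, plus strand: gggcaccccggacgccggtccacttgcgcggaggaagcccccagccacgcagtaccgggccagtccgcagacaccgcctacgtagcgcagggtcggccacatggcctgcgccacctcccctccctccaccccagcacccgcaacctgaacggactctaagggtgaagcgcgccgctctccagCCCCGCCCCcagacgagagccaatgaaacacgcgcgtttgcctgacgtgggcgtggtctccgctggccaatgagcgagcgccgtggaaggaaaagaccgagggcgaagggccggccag
Sdhd promoter, chr9:50603800-50604099, minus strand: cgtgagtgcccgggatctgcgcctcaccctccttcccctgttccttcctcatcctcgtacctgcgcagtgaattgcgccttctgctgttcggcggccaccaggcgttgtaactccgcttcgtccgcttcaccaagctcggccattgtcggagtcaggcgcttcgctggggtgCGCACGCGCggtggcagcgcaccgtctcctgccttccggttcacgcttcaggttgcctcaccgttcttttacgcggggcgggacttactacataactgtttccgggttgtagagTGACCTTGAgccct
Atp5g3 promoter, chr2:73911277-73911576, minus strand: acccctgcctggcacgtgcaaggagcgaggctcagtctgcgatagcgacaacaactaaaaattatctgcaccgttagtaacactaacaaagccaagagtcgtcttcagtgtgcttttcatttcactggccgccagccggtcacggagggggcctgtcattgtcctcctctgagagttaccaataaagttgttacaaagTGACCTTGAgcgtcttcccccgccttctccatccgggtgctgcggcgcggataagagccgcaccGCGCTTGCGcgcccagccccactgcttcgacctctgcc
Cox6a1 promoter, chr5:115348909-115349208, minus strand: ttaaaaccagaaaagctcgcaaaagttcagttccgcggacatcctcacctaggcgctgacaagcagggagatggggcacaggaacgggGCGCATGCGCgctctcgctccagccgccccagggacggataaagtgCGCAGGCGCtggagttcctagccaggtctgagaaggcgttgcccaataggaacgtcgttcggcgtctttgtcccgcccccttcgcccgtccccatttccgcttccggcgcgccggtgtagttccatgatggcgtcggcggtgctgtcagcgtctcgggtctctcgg

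RefSeq records matched 83 of 83 members, 80 by accession and 3 by symbol, and 68 members had a promoter in the table, which covers 27025 genes. GCGCATGCG, the strict form of the site of NRF1 (a regulator of nuclear genes for mitochondrial proteins), occurred in 8 of the 68 promoters (11.8%), against 1.95% of all genes. The looser form GCGCNTGCG, which contains the strict one, occurred in 24 (35.3%), against 7.12% of all genes. AAGATGGCG, bound by YY1, occurred in 8 (11.8%), against 1.64%. CCGGAAGT, an ETS site that GABPA can bind, occurred in 5 (7.4%), against 4.31%, and GGGGCGGGG, an Sp1 site, in 12 (17.6%), against 12.91%. TCAAGGTCA, the site of the oestrogen-related receptors, occurred in 2 promoters (2.9%), those of Sdhd and Atp5g3, against 0.47% of all genes. A match is a description of the letters and says nothing about binding.

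Of the 68 members with a promoter, 22 were called higher with fasting, 3 lower and 43 neither. The strict NRF1 motif stood in 0 of the 22 called higher and in 8 of the 43 that were not called (Ndufa8, Ndufa11, Uqcr11, Uqcrc1, Cox6a1, Atp5g2, Atp5k and Atp5l). The looser form stood in 7 of the 22 and in 17 of the 43. The ETS motif stood in 4 of the 22 and in 1 of the 43, the YY1 motif in 3 and in 5, and the receptor motif in 2 and in 0. Without fasted mouse 2, 2 of those 8, Uqcrc1 and Atp5l, were called higher (adjusted p = 0.00576 and 0.0459). The called members with the ETS motif, Ndufs3, Uqcrh, Cox8a and Atp5h, each lost their call under at least 1 of the 5 other scalings described below. So did Atp5g3, which holds the receptor motif, while Sdhd kept its call. These are counts with no test.

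Expression was read from the processed spot intensity of Agilent 1-colour mouse arrays, taken to log2 and set relative to the 75th percentile of each array, so that a value of 0 is the level of that percentile. Levels of different probes are not compared with each other. Of the 83 members, 81 were well above background on all 24 arrays, Cox8b on 10 and Cox7b2 on 8; no member spot was saturated. Before scaling, the 75th percentile lay between 8.51 and 9.011 on the log2 scale over the arrays, and each array correlated with every other array of its group at 0.985 or more across genes. The 7 hepatocyte markers (Alb, Apoa1, Ttr, Cyp3a11, Hnf4a, Serpina1e and Tat) were measured on all 24 arrays. So were the testis markers Prm1, Prm2 and Tnp1, so detection alone does not check the tissue label. In whole liver, fewer cells of a type and less RNA per cell cannot be told apart.

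Fasted mouse 2 stood apart in these genes. Centred on each member's mean over all arrays, its median over the 83 members was -0.13, while the other 5 fasted mice lay between 0.14 and 0.19, the glucose mice between -0.14 and -0.06, the fructose mice between -0.14 and 0.01 and the water mice between 0.01 and 0.07. It had the lowest value of its group in 78 of 83 members (94%), against 25% of all genes. It also had the lowest weight by array weighting, 0.338. In this scaling the 5 other fasted mice did not overlap with the fed mice in this median, nor did the glucose mice with the water mice. This did not hold under all scalings described below. With centring on the array median, fasted mouse 3 (0.067) lay below water mouse 5 (0.165). There, glucose mouse 1 (-0.047) lay above water mouse 3 (-0.071). In the authors' deposited series table, fasted mouse 1 (0.007) lay below all water mice (0.03 or more). Counts for fasting, and the calls named below that turn on this mouse, are given with and without it. It was singled out by its values in these same members, so the calls without it are not independent of that choice.

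**Figure D1:**
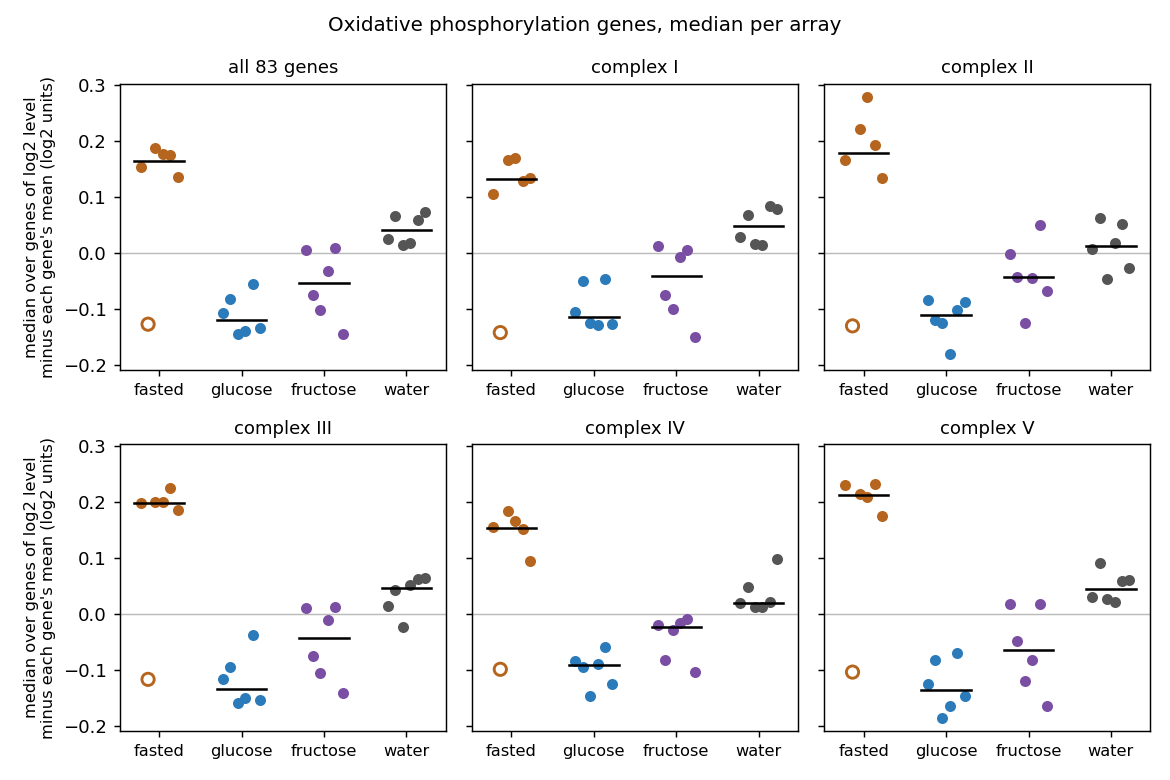
Each point is the median on 1 array over all 83 members or the members of 1 complex, after centring each gene on its mean over 24 arrays (log2 units), by group, with a line at the group median. Over all members fasted mouse 2 (open point), at -0.13, lies among the sugar-fed mice, while the other 5 fasted mice lie between 0.14 and 0.19.

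The first question was which members differed anywhere among the 4 groups. A moderated F test called 58 of 83 members at an adjusted p under 0.05, against 46.3% of all genes. The called members were 20 of 35 in complex I, 2 of 4 in complex II, 6 of 8 in complex III, 14 of 18 in complex IV and 16 of 18 in complex V.

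Fasting for 24 hours raised 25 of 83 members relative to fed mice on tap water (30.1%) and lowered 4 (4.82%), beside 20.7% of all genes called higher and 21.9% called lower. The changes of standard subunits were small: their log2 differences ran from -0.22 to 0.31, with 21 of 72 called higher and 2 lower. The largest changes among called members were in Cox6b2, a testis isoform, 3.01-fold higher, in Atp5s, 2.75-fold higher, and in Cox7a1, a heart and muscle isoform, 1.48-fold lower. The median log2 difference of the members was 0.08, against 0.01 over all genes, and 56 of 83 lay above 0 (67.5%), against 50.8% of all genes. At an unadjusted p under 0.05, 31 were higher and 6 lower, against 5664 and 6007 of the 23990 genes tested.

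The median and the split between higher and lower depended on how the arrays were scaled. Quantile normalization gave 16 higher and 10 lower with a median of 0.02, the authors' deposited series table gave 13 higher and 19 lower with a median of -0.04, and centring on the array median gave 15 higher and 3 lower with a median of 0.085. Fast cyclic loess gave 26 and 6, and normexp background correction 27 and 4. Called the same way under the main scaling and these 5 others were 11 members that rose (among them Ndufa12, Ndufc2, Ndufs1, Ndufs7, Sdhd, Uqcrfs1, Cox6b2, Cox7a2l, Atp5d and Atp5s) and 3 that fell (Ndufs8, Cox7a1 and Ndufa4l2). Without fasted mouse 2, 42 members were called higher and 5 lower, with a median of 0.11, beside 20.8% of all genes called higher and 21.6% called lower. The 25 higher and 4 lower members called with that mouse were also called without it. The members called only without it were Ndufa5, Ndufa10, Ndufb5, Ndufb7, Ndufb9, Ndufv2, Sdhb, Uqcr10, Uqcrc1, Uqcrc2, Cox6b1, Cox7b, Ndufa4, Atp5a1, Atp5c1, Atp5c1-ps and Atp5l, which were higher, and Cox6a2, which was lower. With all mice, a dimmer probe of Atp5a1, Ndufa10 and Ndufv2 was called higher, at 0.33, 0.49 and 0.74. These calls are from limma over all kept probes (adjusted p = 0.00103, 2.04e-05 and 0.00241). Another Ndufa10 probe and the dimmer probes of Ndufa5, Ndufb5, Sdhb and Uqcr10 were not called. By complex, the members called higher without fasted mouse 2 were 15 of 35 in I, 2 of 4 in II, 5 of 8 in III, 8 of 18 in IV and 12 of 18 in V. Within slide 1, slide 2 and slide 3, each with 2 arrays a group, the median was 0.13, -0.05 and 0.12; slide 2 holds fasted mouse 2.

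**Figure D2:**
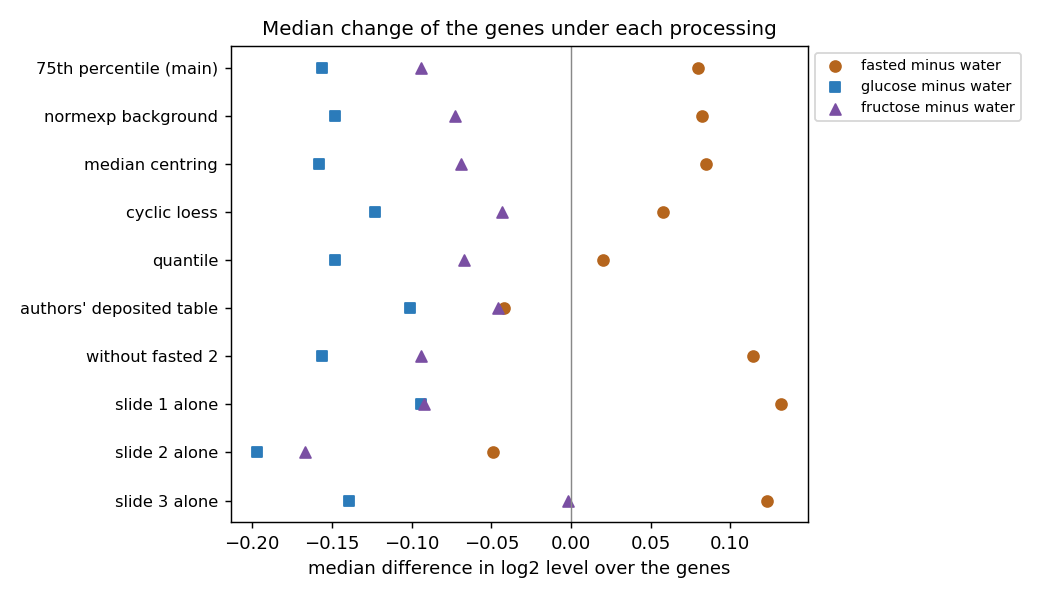
Points give the median log2 difference of the members from the water mice under each way of processing the arrays, for fasted, glucose and fructose mice; the vertical line marks 0. The fasted-water median lies at 0.08 in the main scaling and at -0.04 in the authors' series table, while the glucose-water and fructose-water medians lie below 0 throughout.

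Complex I, the NADH dehydrogenase, had 9 of 35 members called higher (25.7%) and 1 lower (2.86%) with fasting, beside 20.7% and 21.9% of all genes. The share called higher was near that of all genes. The median of complex I, 0.03, changed sign to -0.045 in the authors' deposited series table and stayed above 0 in the other scalings. Its 7 core subunits of the matrix arm, which carry the flavin and the iron-sulphur clusters and form the quinone site, had 5 called higher and 1 lower, with a median of 0.19 that lay between 0.09 and 0.20 under every scaling run. Of 28 accessory subunits, 4 were called higher and 0 lower (limma; 5 higher and 1 lower at an unadjusted p under 0.05), with a median of 0.02, and -0.07 in the series table. Without fasted mouse 2, 6 core and 9 accessory subunits were called higher. The difference between core and accessory subunits was not tested.

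Ndufs1, the largest iron-sulphur subunit of complex I, had log2 levels with a lowest, median and highest value of 5.23, 5.81 and 5.87 in fasted mice, against 5.34, 5.47 and 5.52 in water mice. The groups overlapped only through fasted mouse 2, at 5.23; the next fasted mouse lay at 5.78. The difference was 0.26 ± 0.08 (SE; 1.2-fold, adjusted p = 0.0107), and 0.36 without that mouse (adjusted p = 3.69e-06). A second Ndufs1 probe gave 0.27 with an adjusted p of 0.193 over all kept probes, and 0.0115 for the probe used. Ndufs7, a core subunit that holds an iron-sulphur cluster next to the quinone site, had 6.43, 6.75 and 6.80 in fasted mice, against 6.34, 6.47 and 6.51 in water mice. It was higher by 0.25 ± 0.06 (1.19-fold, adjusted p = 0.000901), with all fasted mice other than mouse 2 above all water mice.

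Ndufc2, an accessory subunit of the membrane arm, had 5.95, 6.25 and 6.34 in fasted mice, against 5.88, 5.95 and 6.03 in water mice, a difference of 0.25 ± 0.07 (adjusted p = 0.00291). Ndufs8, another core iron-sulphur subunit, was lower: it had 5.89, 6.08 and 6.12 in fasted mice, against 6.23, 6.26 and 6.35 in water mice. Every fasted mouse lay below every water mouse, and the difference was -0.22 ± 0.05 (1.16-fold lower, adjusted p = 0.000618). Ndufa12, an accessory subunit of the matrix arm, rose by 0.21 (adjusted p = 0.00194). Ndufs3, Ndufs4, Ndufv1 and Ndufa7 also rose, by 0.19, 0.20, 0.155 and 0.15, with adjusted p between 0.0102 and 0.0301. None of the distal membrane arm subunits, Ndufb2 to Ndufb11, was called with all mice; Ndufb9 came nearest, at 0.13 (adjusted p = 0.0754). Without fasted mouse 2, Ndufb5, Ndufb7 and Ndufb9 were called higher, at 0.11, 0.19 and 0.18 (adjusted p = 0.0411, 0.00356 and 0.00446).

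Complex II, succinate dehydrogenase, had 1 of 4 subunits called higher (25%) and 0 lower, beside 20.7% and 21.9% of all genes. Sdhd, a membrane anchor of the complex, had 6.30, 6.54 and 6.66 in fasted mice, against 6.11, 6.24 and 6.33 in water mice. The groups overlapped only through the lowest fasted mouse, and the difference was 0.28 ± 0.07 (1.21-fold, adjusted p = 0.00134). The flavin subunit Sdha differed by -0.02, the iron-sulphur subunit Sdhb by 0.155 and the other anchor, Sdhc, by 0.05, with adjusted p of 0.826, 0.102 and 0.533. A dimmer Sdha probe was called higher, at 0.30 (limma over all kept probes, adjusted p = 0.00175). The remaining Sdha probes gave -0.02 and -0.03 and were not called. Without fasted mouse 2, Sdhb was called higher, at 0.22 (adjusted p = 0.00988).

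Complex III, the cytochrome bc1 complex, had 2 of 8 members called higher with fasting (25%), near the 20.7% of all genes. Its median of 0.12 changed sign to -0.02 under quantile normalization and -0.04 in the authors' deposited series table. Uqcrfs1, the Rieske iron-sulphur protein, had 5.46, 5.89 and 5.94 in fasted mice, against 5.47, 5.50 and 5.597 in water mice. Apart from mouse 2, at 5.46, the fasted mice lay above all water mice, and the difference was 0.31 ± 0.07 (1.24-fold, adjusted p = 0.00139), or 0.38 without that mouse. Uqcrh, the hinge protein, had 7.75, 7.89 and 7.94 in fasted mice, against 7.68, 7.72 and 7.78 in water mice, a difference of 0.15 ± 0.04 (adjusted p = 0.00525) that turned to -0.005 under quantile normalization and -0.02 in the series table. The core proteins Uqcrc1 and Uqcrc2 were not called, at 0.12 each, and both were called higher without fasted mouse 2, at 0.20 and 0.18 (adjusted p = 0.00576 and 0.00525).

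Complex IV, cytochrome c oxidase, had 5 of 18 members called higher (27.8%) and 2 lower (11.1%) with fasting, beside 20.7% and 21.9% of all genes. Its median of 0.03 lay at -0.05 under quantile normalization, -0.07 in the authors' deposited series table and -0.001 under cyclic loess. The isoforms of this complex held the largest rise and the largest called fall of all members.

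Cox6b2 is the testis isoform of subunit 6b; its probe lies on the minus strand at chr7:4703488-4703547 of mm9. Its log2 levels had a lowest, median and highest value of -0.66, -0.39 and -0.05 in fasted mice, against -2.28, -1.98 and -1.57 in water mice. Every fasted mouse lay above every fed mouse of any group. The difference was 1.59 ± 0.12 (SE, 6 mice each; 95% interval 1.34 to 1.84; adjusted p = 4.06e-10), and it ran from 1.185 to 1.693 over 39 other settings, called in each. Cox6b1, the common isoform, differed by 0.11 ± 0.07 (adjusted p = 0.236), and by 0.19 without fasted mouse 2 (adjusted p = 0.0091). The testis markers Prm1, Prm2 and Tnp1 had 0 of 3 called by limma (adjusted p = 0.781, 0.394 and 0.368), with a summed log2 level between -2.31 and -0.78 in fasted mice and between -2.28 and -1.96 in water mice.

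Cox7a1 is the heart and muscle isoform of subunit 7a. Its probe, shown because its 60 bases span 612 bases of mm9 on the plus strand and so cross at least 1 intron, reads a spliced transcript.
Cox7a1 probe, chr7:30970337-30970948: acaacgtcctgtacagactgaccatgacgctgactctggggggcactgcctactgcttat
Cox7a1 had 0.89, 1.02 and 1.24 in fasted mice, against 1.29, 1.57 and 1.92 in water mice. All fasted mice lay below all water mice, and the difference was -0.56 ± 0.14 (adjusted p = 0.00235). Cox7a2, the liver isoform, differed by -0.05 ± 0.06 (adjusted p = 0.558). The muscle markers had 0 of 4 measured genes called by limma (Myh4, Tnnt3, Tnni3 and Myh6, adjusted p between 0.166 and 0.677); Ckm, Mb and Myh1 were above background on 0 arrays and Acta1 on 2. The summed level of the 4 measured muscle markers lay between -1.73 and -1.30 in fasted mice and between -1.66 and -1.30 in water mice.

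Cox7a2l is known for a role in joining complexes III and IV into supercomplexes; C57Bl/6J mice are known to carry a shortened allele of it, whose product is reported not to support that role. It had 6.22, 6.35 and 6.47 in fasted mice, against 5.77, 5.96 and 6.03 in water mice. Its groups did not overlap, and it was higher by 0.41 ± 0.05 (1.33-fold, adjusted p = 1.04e-06). Ndufa4l2, a hypoxia-induced paralogue of Ndufa4, had -1.26, -0.85 and -0.59 in fasted mice, against -0.69, -0.40 and -0.24 in water mice. The difference was -0.45 ± 0.13 (1.36-fold lower, adjusted p = 0.00752), with an overlap between the highest fasted and the lowest water mouse; Ndufa4 itself differed by 0.10 (adjusted p = 0.149), and by 0.145 without fasted mouse 2 (adjusted p = 0.0227).

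Cox4i1, the common isoform of subunit 4, was called higher with 7.87, 7.96 and 8.08 in fasted mice, against 7.73, 7.80 and 7.85 in water mice. Its difference of 0.17 ± 0.04 (adjusted p = 0.0025) turned to -0.05 in the authors' deposited series table. Cox8a, the liver isoform of subunit 8, differed by 0.14 (adjusted p = 0.00656) and turned to -0.04 under quantile normalization and -0.09 in the series table. Cox7c rose by 0.14 (adjusted p = 0.0189). A second Cox7c probe gave 0.10 and was not called by limma over all kept probes (adjusted p = 0.402). The lung isoform Cox4i2 differed by -0.05, Cox6a1 by 0.04, Cox6a2 by -0.34, Cox7b by 0.15 and Cox5a by 0.02, with adjusted p between 0.0532 and 0.8. Without fasted mouse 2, Cox7b was called higher, at 0.21 (adjusted p = 0.000551), and Cox6a2 lower, at -0.40 (adjusted p = 0.0481). The dim isoforms Cox7b2 and Cox8b differed by -0.79 ± 0.60 and -0.10 ± 0.47, and neither was called.

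Complex V, the ATP synthase, had 8 of 18 members called higher (44.4%) with fasting and 1 lower (5.56%), beside 20.7% and 21.9% of all genes. Its median of 0.12 lay at 0.05 under quantile normalization and at -0.03 in the authors' deposited series table. In each of these scalings its only members called higher were Atp5d, Atp5s and Atp5sl. Of these, Atp5s and Atp5sl are not core subunits of the ATP synthase. Atp5s, coupling factor B, had -1.67, -1.29 and -1.15 in fasted mice, against -3.08, -2.81 and -2.52 in water mice; its probe lies on the plus strand at chr12:70842700-70842759 of mm9. The fasted mice lay above every fed mouse, and the difference was 1.46 ± 0.13 (2.75-fold, adjusted p = 2.95e-09), between 0.859 and 1.714 over 39 other settings and called in each.

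Among the subunits proper, Atp5b, the catalytic beta subunit of F1, had 8.03, 8.27 and 8.32 in fasted mice, against 7.92, 7.98 and 8.04 in water mice, and was higher by 0.26 ± 0.05 (1.2-fold, adjusted p = 0.000199). Only fasted mouse 2 lay within the range of the water mice. Atp5h, subunit d of the peripheral stalk, was higher by 0.26 ± 0.06 (adjusted p = 0.000738), with 7.46, 7.74 and 7.81 in fasted mice, against 7.27, 7.47 and 7.52 in water mice. The calls of Atp5b and Atp5h were lost under quantile normalization and in the authors' deposited series table. Their differences fell as low as 0.019 and 0.093 over 36 other settings. Atp5d, the delta subunit of F1, was higher by 0.24 ± 0.05 (adjusted p = 0.000369) with no overlap between the groups, at 5.90, 6.07 and 6.11 in fasted mice, against 5.71, 5.82 and 5.87 in water mice. Atp5e, the epsilon subunit of F1, was lower in fasted mice, with a difference of -0.15 ± 0.045 (1.11-fold lower, adjusted p = 0.0103), with 7.39, 7.51 and 7.57 in fasted mice, against 7.60, 7.66 and 7.72 in water mice and no overlap. Its call was lost under centring on the array median. The glucose mice differed from water mice by a similar amount in Atp5e, -0.16, which was not called.

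The c-ring is encoded by 3 genes with the same mature protein, and differences between them were not tested. Atp5g3 was called higher, by 0.23 ± 0.06 (1.17-fold, adjusted p = 0.00245), while Atp5g1 differed by -0.04 and Atp5g2 by 0.09 (adjusted p = 0.638 and 0.188). The 2 other Atp5g1 probes gave 0.004 and 0.27, and over all kept probes the last had an adjusted p of 0.000153 where the probe used had 0.64. The peripheral stalk subunits Atp5f1 and Atp5o, and Atp5sl, rose by 0.15, 0.14 and 0.21 (adjusted p = 0.0465, 0.0263 and 0.0247). Second probes of Atp5o and Atp5sl gave 0.14 and 0.16, not called by limma over all kept probes (adjusted p = 0.0539 and 0.0866). There the Atp5f1 probe used was not called either (adjusted p = 0.0504), while its dimmer probes were, at 0.17 and 0.70. The calls of Atp5g3, Atp5f1 and Atp5o were lost under quantile normalization and in the authors' deposited series table. Of the 30 members with several kept probes, the probes disagreed on the call for 13 and on the sign for 7 in this comparison, and none had probes called in opposite directions.

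**Figure D3:**
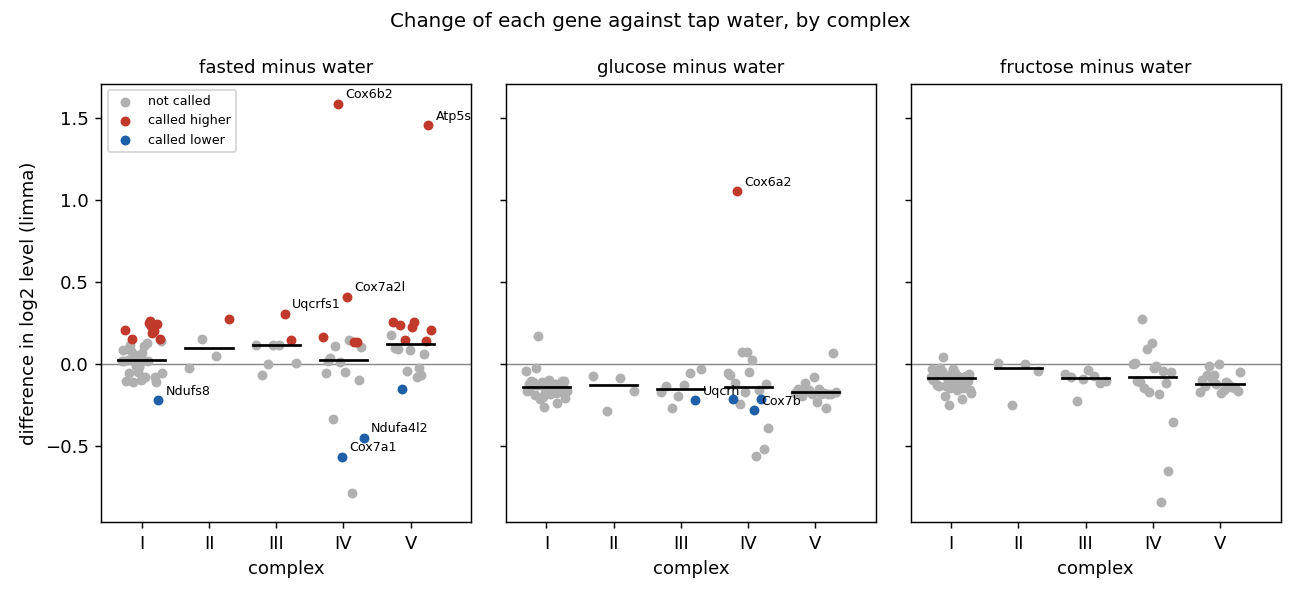
Each point is the log2 difference of 1 member from the water group, by complex and by comparison, with a line at the median of each complex; members called higher are red, called lower blue and not called grey. Cox6b2 and Atp5s stand at 1.59 and 1.46 with fasting, and Cox6a2 stands at 1.06 with glucose, where most other members lie below 0.

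The comparison of glucose with water mice asked how the fed liver responds to a sugar load. Of 83 members, 1 was called higher and 4 were called lower than in water mice, beside 0.429% of all genes called higher and 0.471% called lower. The shift was small and broad: 77 of 83 members lay below 0 (92.8%), against 51.9% of all genes, with a median of -0.16, against -0.01 over all genes. At an unadjusted p under 0.05, 55 members were lower and 1 was higher, against 1557 and 1231 of all genes. Medians by complex were -0.14 for I, -0.12 for II, -0.15 for III, -0.14 for IV and -0.17 for V, and each stayed below 0 under every scaling run. The members' median lay between -0.197 and -0.094 in 39 other settings, and was -0.09, -0.20 and -0.14 within slides 1, 2 and 3.

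The 4 members called lower with glucose were Cox8a, Uqcrh, Cox7b and Cox5a. Cox8a, the liver isoform of subunit 8, had 7.69, 7.82 and 7.86 in glucose mice, against 7.98, 8.02 and 8.03 in water mice, a difference of -0.21 ± 0.04 (adjusted p = 0.0097). Uqcrh, the hinge protein of complex III, had 7.46, 7.52 and 7.54 in glucose mice, against 7.68, 7.72 and 7.78 in water mice, a difference of -0.22 ± 0.04 (adjusted p = 0.00991). Cox7b, the common isoform of subunit 7b, had 5.50, 5.55 and 5.63 in glucose mice, against 5.76, 5.84 and 5.86 in water mice, a difference of -0.28 ± 0.06 (adjusted p = 0.0244). Cox5a, a subunit on the matrix side of the enzyme, had 7.41, 7.47 and 7.55 in glucose mice, against 7.63, 7.71 and 7.74 in water mice, a difference of -0.21 ± 0.05 (adjusted p = 0.046). None of these 4 had overlapping groups. A second probe of Sdhb was called lower with glucose by limma over all kept probes, at -0.36 (adjusted p = 0.0467). The Sdhb probe used gave -0.28 there (adjusted p = 0.0826). Over 36 other settings the call held in 35 for Uqcrh, 34 for Cox8a, 28 for Cox7b and 11 for Cox5a, whose call was lost, among others, with the slide or the replicate number as a block and under quantile normalization. The number called lower moved widely with the fit: it was 0 with centring on the array median, 19 without fasted mouse 2, which enters through the shared estimate of spread, and 18 with array weights.

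Cox6a2, the heart and muscle isoform of subunit 6a, was the only member called higher with glucose. Its probe lies on the minus strand at chr7:135349160-135349219 of mm9. It had -2.46, -2.14 and -1.46 in glucose mice, against -3.40, -3.20 and -2.70 in water mice, with every glucose mouse above every water mouse. The difference was 1.06 ± 0.16 (2.08-fold, 95% interval 0.73 to 1.38, adjusted p = 0.000872). It was called in each of the 36 other settings that hold more than 1 slide. Cox6a1, the liver isoform, differed by -0.12 ± 0.05 (adjusted p = 0.31). The 4 measured muscle markers had 0 called, and their summed level lay between -1.62 and -1.45 in glucose mice and between -1.66 and -1.30 in water mice. Ndufa8, an accessory subunit of complex I, had the next highest difference, 0.175 (adjusted p = 0.518).

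**Figure D4:**
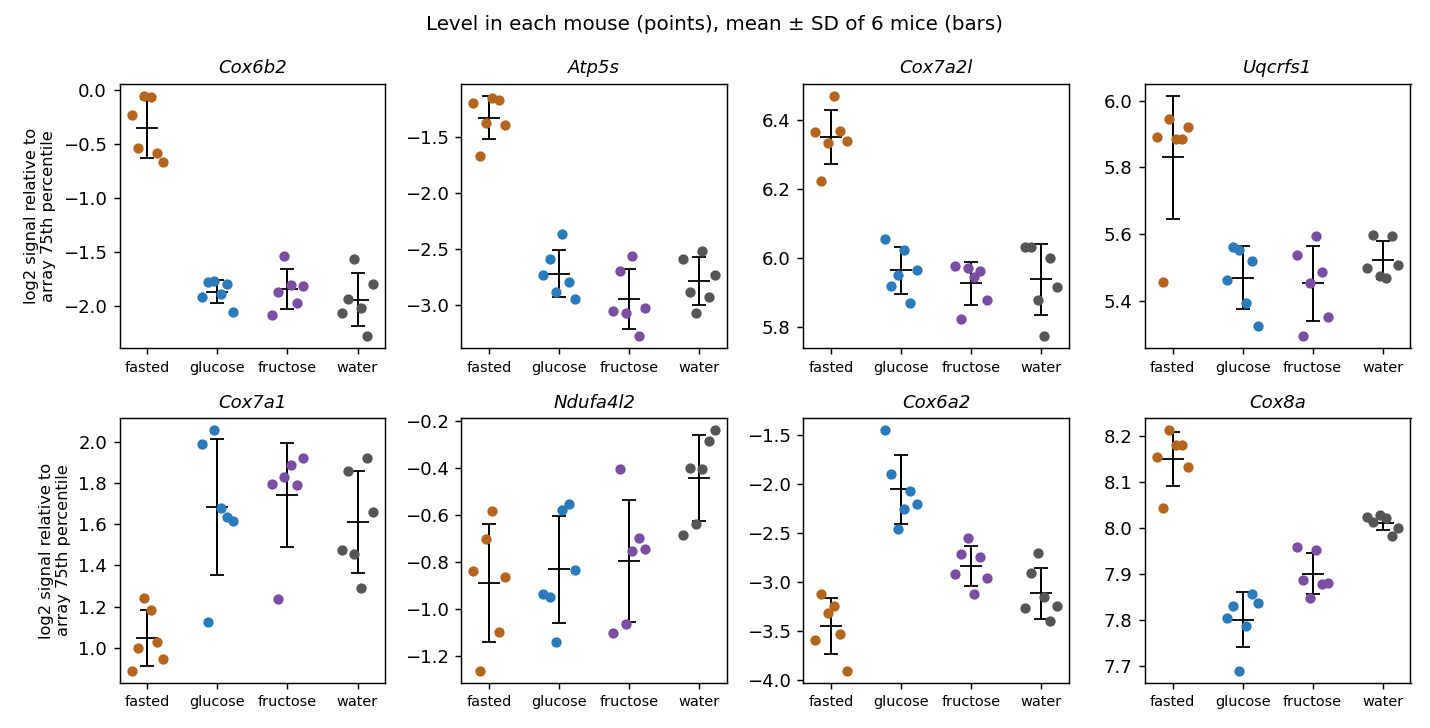
Log2 levels relative to the array's 75th percentile in each of the 24 mice, by group, for 8 members; bars give the mean and SD of 6 mice. Cox6b2 and Atp5s are high in all 6 fasted mice, Cox7a1 is low in them, and Cox6a2 is high in the glucose mice.

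Drinking 20% fructose gave 0 members called in either direction by limma (0 higher and 28 lower at an unadjusted p under 0.05). Of all genes, 0.496% were called higher and 0.459% lower, and 1744 were higher and 2138 lower at the unadjusted threshold. As with glucose, most members lay below 0, 74 of 83 (89.2%), against 54.6% of all genes, with a median of -0.09, against -0.02 over all genes. The comparisons of glucose and of fructose share the 6 water mice. By complex, medians were -0.08 for I, -0.02 for II, -0.08 for III, -0.08 for IV and -0.12 for V; that of complex II changed sign under centring on the array median, normexp, cyclic loess and in the authors' deposited series table. The members' median lay between -0.167 and -0.002 in 39 other settings, and was -0.09, -0.17 and -0.002 within slides 1, 2 and 3.

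The lowest p values with fructose belonged to Ndufv3, Ndufs3 and Sdhb. Ndufv3, an accessory subunit of the matrix arm of complex I, differed by -0.17 ± 0.05 (adjusted p = 0.0802). Ndufs3, a core subunit of the same arm, differed by -0.21 ± 0.06 (adjusted p = 0.0971), and Sdhb, the iron-sulphur subunit of complex II, by -0.25 ± 0.08 (adjusted p = 0.107). Cox6a2 had -3.12, -2.83 and -2.55 in fructose mice, against -3.40, -3.20 and -2.70 in water mice, which overlapped, with a difference of 0.28 ± 0.16 (adjusted p = 0.396). Cox6b2, Atp5s, Cox7a1 and Cox7a2l differed by 0.09, -0.16, 0.13 and -0.01, and none was called. The number called lower was 1 with array weights, 1 with an intensity trend in the fit and 6 without fasted mouse 2.

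Fructose and glucose are isomeric hexoses that differ in carrying a ketone or an aldehyde group. They were set directly against each other at the same concentration in the water and the same time, and intake was not compared. This gave 0 members called by limma (7 higher and 1 lower at an unadjusted p under 0.05), where 0% of all genes were called higher and 0% lower. At that unadjusted threshold, 876 of all genes were higher and 1004 lower. The members' median was 0.05 higher in fructose mice, against -0.01 over all genes, and 69 of 83 lay above 0 (83.1%), against 48.2% of all genes. Within slides 1, 2 and 3 the median was 0.004, 0.02 and 0.12. Cox6a2 had the largest difference, with -3.12, -2.83 and -2.55 in fructose mice, against -2.46, -2.14 and -1.46 in glucose mice. These did not overlap, and the difference of -0.78 ± 0.16 had a 95% interval of -1.10 to -0.45 and an adjusted p of 0.16; it was called only with normexp background correction, among 39 other settings. A p above the threshold does not show that the sugars act alike.

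More members were called between fasted and sugar-fed mice than between fasted and water mice. Relative to glucose mice, 55 of 83 members were higher in fasted mice and 3 lower, beside 21.8% of all genes called higher and 23% called lower, with a median of 0.23 (0.01 over all genes; 0.26, 0.16 and 0.27 within slides 1, 2 and 3). Relative to fructose mice, 46 were higher and 3 lower, beside 22.7% and 22.5% of all genes, with a median of 0.16 (0.03 over all genes; 0.25, 0.15 and 0.14 within the slides). These comparisons and that with water share the fasted mice. The first split was 47 and 6 under quantile normalization and 29 and 10 in the authors' deposited series table, where the median was 0.06. The split against fructose was 26 and 6 under quantile normalization and 19 and 15 in the series table, where the median was 0.01. Called the same way under the main scaling and all 5 others were 28 higher and 2 lower against glucose, and 19 higher and 2 lower against fructose; the 2 lower were Cox6a2 and Cox7a1 against both sugars.

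By complex, fasted over glucose gave 21 of 35 called higher in I, 2 of 4 in II, 6 of 8 in III, 11 of 18 in IV and 15 of 18 in V. Cox6b2 and Atp5s were again highest, at 1.52 and 1.39 (2.86-fold and 2.63-fold, adjusted p = 6.05e-10 and 4.99e-09). Atp5g3, a c-ring gene, Sdhd, the membrane anchor, and Sdhb, the iron-sulphur subunit, followed at 0.46, 0.44 and 0.44 (adjusted p = 8.51e-07, 7.62e-06 and 4.14e-05). Lower in fasted mice were Cox6a2 by 2.62-fold (-1.39 ± 0.16, adjusted p = 1.29e-07), Cox7a1 (-0.64, adjusted p = 0.000733) and Ndufa8 (-0.28, adjusted p = 0.0206). The call of Ndufa8 was lost without fasted mouse 2, its lowest mouse, and under centring on the array median, and its difference ran from -0.364 to -0.2 over 36 other settings.

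Against fructose, the called members higher in fasted mice were 17 of 35 in I, 2 of 4 in II, 5 of 8 in III, 11 of 18 in IV and 11 of 18 in V. Atp5s and Cox6b2 were higher by 1.62 and 1.495 (3.08-fold and 2.82-fold, adjusted p = 4.74e-10 and 8.23e-10). Cox7a2l, Atp5h and Atp5g3 followed at 0.42, 0.415 and 0.41 (adjusted p = 6.24e-07, 2.94e-06 and 4.57e-06). Lower were Cox7a1 (-0.70, adjusted p = 0.000305), Cox6a2 (-0.61, adjusted p = 0.00243) and Ndufs8 (-0.12, adjusted p = 0.05), the last of which kept its call in 11 of 36 other settings and lost it without fasted mouse 2.

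Complex IV holds several pairs of isoforms. In fasted mice Cox6b2 rose and Cox7a1 fell relative to water mice while Cox6b1 and Cox7a2, the liver forms, were not called, and in glucose mice Cox6a2 rose while Cox6a1 was not called. Without fasted mouse 2, which was singled out by its values in these members, Cox6b1 was called higher by limma, at 0.19 (adjusted p = 0.0091). With all mice Cox6b1 was called higher in fasted mice than in glucose mice (0.35, adjusted p = 0.000361) and fructose mice (0.26, adjusted p = 0.00613). Differences between the isoforms of a pair were not tested. The 7 alternative isoforms had 1 called higher (14.3%) and 2 lower (28.6%) with fasting, beside 20.7% and 21.9% of all genes. They had 1 called higher with glucose and 0 called with fructose.

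The remaining components of the system were counted in the same fit, for fasted over water mice unless stated. In that comparison 20.7% of all genes were called higher and 21.9% lower. The mitochondrially encoded subunits had 3 of 11 measured called higher and 0 lower, with a median of -0.01: ND5, ND1 and ND2, all of complex I, differed by 0.49, 0.21 and 0.13 (adjusted p = 4.66e-05, 0.0137 and 0.0406). Under quantile normalization this was 2 higher and 2 lower, and 5 lower and 1 higher in the authors' deposited series table. With glucose, ND4L and ND2 were called lower, at -0.29 and -0.25 (adjusted p = 0.0201 and 0.0125). Of the 5 subunits outside the name rule, Cycs, cytochrome c, was higher by 0.21 (adjusted p = 0.0386) and Atpif1, the inhibitor of the ATP synthase, was lower, at -0.29 (adjusted p = 0.00899).

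Assembly factors build the complexes and are not part of them; their counts stand beside 20.7% of all genes called higher and 21.9% called lower. Those of complex I had 4 of 14 higher and 5 lower, with Ndufaf5 at -0.74, Ndufaf6 at -0.42 and Nubpl at 0.35 (adjusted p = 4.09e-07, 1.45e-05 and 0.0127). All 4 of complex II fell (Sdhaf3 -0.39, Sdhaf1 -0.36, Sdhaf2 -0.27 and Sdhaf4 -0.17), with a median of -0.32 that stayed below 0 under every scaling run and 3 called under centring on the array median. Those of complex III had 1 of 6 higher and 3 lower, with Uqcc2 at -0.645, Bcs1l at -0.45 and Uqcc3 at 0.31. Those of complex IV had 5 of 19 higher and 4 lower, shares near those of all genes; Sco2, a copper chaperone, rose by 1.48, Coa5 by 0.99 and Coa6 by 0.82 (adjusted p = 2.89e-11, 3.23e-10 and 2.63e-08). Of 3 factors of complex V, Atpaf2 fell, at -0.22 (adjusted p = 0.000185). Coa5 was lower with fructose, at -0.31 (adjusted p = 0.0428).

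Transcriptional regulators of mitochondrial genes had 12 of 16 called higher with fasting and 0 lower, between 9 and 12 under the scalings run. Ppargc1a, a coactivator of mitochondrial genes, was higher by 2.57, Ppargc1b by 1.47 and Ppara, a nuclear receptor for fatty acids, by 0.65 (adjusted p = 5.62e-08, 8.01e-08 and 0.000157). Coenzyme Q synthesis had 5 of 12 higher and 0 lower, led by Coq7, Coq10a and Coq3 at 0.47, 0.385 and 0.35. Carriers and uncoupling proteins had 5 of 8 higher and 0 lower, with Ucp3 at 1.16, Ucp2 at 1.09 and the phosphate carrier Slc25a3 at 0.46 (adjusted p = 2.1e-09, 1.06e-08 and 1.84e-05). Mitochondrial ribosomal proteins had more called lower than higher, with 9 of 77 higher and 31 lower and a median of -0.09 that stayed below 0 under every scaling run; Mrps27, Mrpl35 and Mrps25 were lowest, at -0.89, -0.67 and -0.58. With glucose Mrps31, and with fructose Mrps2, was the only one of these called, at -0.24 and -0.28 (adjusted p = 0.0324 and 0.0371).

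**Figure D5:**
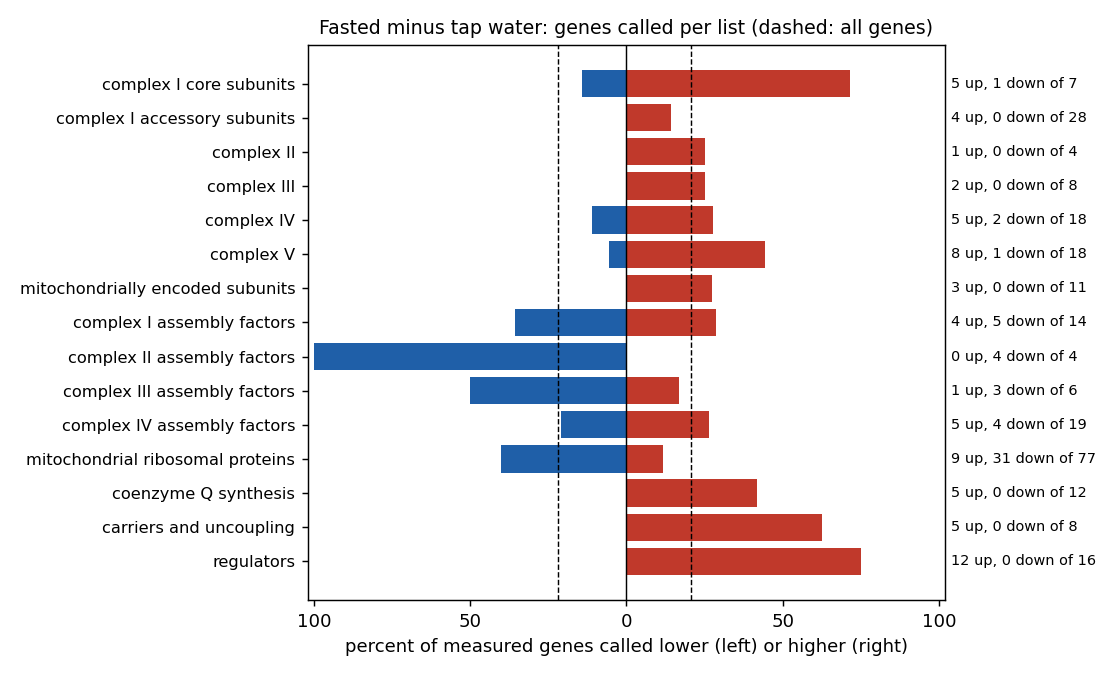
Bars give the percent of measured genes of each list called higher (right, red) or lower (left, blue) in fasted over water mice, and dashed lines the 20.7% and 21.9% of all genes called. Regulators had 12 of 16 called higher, and mitochondrial ribosomal proteins 31 of 77 called lower.

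Markers of several cell types were called with fasting, beside 20.7% of all genes called higher and 21.9% lower, while the testis and muscle markers had none called. Hepatocyte markers had 3 of 7 called higher and 1 lower, with a summed log2 level between 11.72 and 11.90 in fasted mice, 11.55 and 11.68 in glucose mice, 11.46 and 11.60 in fructose mice, and 11.61 and 11.85 in water mice. Cholangiocyte markers had 3 of 5 lower, with a summed level between 1.24 and 2.68 in fasted mice and between 2.26 and 2.98 in water mice. Stellate cell markers had 1 of 5 higher and 3 lower, at 5.79 to 6.06 in fasted mice and 5.47 to 6.02 in water mice. Endothelial markers had 3 of 5 higher and 1 lower. Their summed level lay between 4.75 and 5.21 in fasted mice (median 4.83) and between 4.89 and 5.18 in water mice (median 5.06). Kupffer cell markers had 1 of 5 higher, a share near that of all genes, and white adipocyte markers 2 of 4 higher. Of the brown adipocyte markers, Ucp1 was above background on 0 arrays and Dio2 on 1, and Elovl3 was called higher. The part of these values in the members' differences was not tested.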

How the data were processed

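Liver RNA of each mouse was labelled with Cy3 and hybridised to an array of its own. Per the file headers, Feature Extraction 10.10.1.1 subtracted the background within each array to give a processed intensity per spot, with no normalization between arrays. A series table, deposited by the authors in log2 units, was an alternative; its normalization is not stated, and its columns have nearly equal distributions.

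Control and outlier spots were left out, and the processed intensity was taken to log2 minus the array's 75th percentile of non-control spots. Of 56605 probes, 36230 were well above background on at least 6 of 24 arrays, and a gene took its brightest kept probe, which gave 23990 genes. All 24 arrays entered 1 fit of group means with limma 3.58.1 in R 4.3.3 (data.table version 1.17.8), with Benjamini-Hochberg adjustment over all genes within a comparison and a threshold of 0.05. Errors are standard errors of that fit, and the number of arrays limits the precision. Each of 3 slides held 2 arrays per group.

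Replicate numbers were not treated as pairs in the main fit. Deviations from group means correlated between -0.173 and 0.219 over 36 same-numbered pairs (mean 0.0333), with 9 above 0.1. Different-numbered pairs had a mean of -0.0067, and 8 of 24 arrays correlated best with a same-numbered array. These values do not settle whether the numbers link the mice, and counts with the replicate number as a block are given below.

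The members, the lists and the tests were chosen with earlier results of these data known. Named members were up to 3 called rises and falls per complex for fasting, all called or the 5 largest each way elsewhere (3 of lowest p where none was called), and a panel of isoforms; the members called only without fasted mouse 2, Ndufa12, Ndufa7, Ndufs3, Ndufs4, Ndufv1, Ndufb9, Atp5d, Atp5f1, Atp5o, Atp5sl, Cox7c, Sdha, Sdhc, Uqcrc1 and Uqcrc2 were named after their values were seen. Of the members, 1 is counted and not reported by name here. The steps were tested on simulated data for fasted against water mice: among 23990 genes, with 50 changed at each size, 2% of changes of 0.2 on the log2 scale, 56% of 0.5, 92% of 1 and 96% of 2 were recovered, with 11 false calls. Far fewer genes changed there than in the data, where 20.7% of all genes were called higher with fasting and 21.9% lower. The adjusted threshold was therefore stricter in the simulation, and its shares do not give the recovery in the real comparison.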

Additional observations from a re-analysis of the deposited data

Results flagged for a closer look

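In groups of 6 mice, a single mouse was singled out where its gap to the nearest other mouse, divided by the range of the group, exceeded 0.625. This held in 24 of 160 cases tested; chance flags about 1 in 20. Fasted mouse 2 gave 19 of the 24, lowest of its group in each. Its median centred log2 level was -0.127 over all members, where the other fasted mice lay between 0.136 and 0.189; by complex it was -0.142 for I, -0.13 for II, -0.117 for III, -0.099 for IV and -0.104 for V.

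The single members in which fasted mouse 2 lay far below the other 5 were, as log2 levels, Uqcrfs1 at 5.457 (others 5.884 or more), Cox7b at 5.66 (6.016 or more), Atp5g3 at 7.674 (7.968 or more), Ndufs1 at 5.234 (5.778 or more), Ndufs3 at 6.362 (6.702 or more), Ndufs8 at 5.888, Atp5g1 at 7.11, Atp5b at 8.027, Ndufs7 at 6.432, Cox8b at -6.212, Ndufa8 at 3.559, Cox6b1 at 3.994 and Atp5e at 7.393. In other mice, Cox7a1 was 1.237 in fructose mouse 2, where the other 5 lay between 1.788 and 1.919. Sdhb was 6.814 in glucose mouse 4, below the others at 6.924 or more. Among water mice, Atp5h was 7.271 in mouse 3, Cox6b1 was 4.361 in mouse 5 and Cox7a2 was 6.919 in mouse 6, far below, above and above the others.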

How the results depend on the processing

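Leaving out 1 mouse moved the numbers of members called as follows (lowest to highest): fasted over water 21 (without fasted mouse 5) to 42 (without fasted mouse 2) higher and 4 to 5 lower, median 0.061 to 0.114; glucose over water 1 to 1 higher, 2 to 19 lower (19 without fasted mouse 2), median -0.164 to -0.142; fructose over water 0 to 0 higher, 0 to 6 lower (6 without fasted mouse 2), median -0.105 to -0.083; fructose over glucose 0 to 0 in both directions, median 0.04 to 0.068; fasted over glucose 48 to 65 higher, 2 to 3 lower, median 0.214 to 0.29; fasted over fructose 39 to 59 higher, 2 to 3 lower, median 0.14 to 0.223. With the replicate number as a block, the counts were 25 and 4 for fasted over water, 1 and 3 for glucose, 0 and 0 for fructose, 53 and 3 for fasted over glucose and 44 and 2 for fasted over fructose; no count moved by over 1.5 times. Quantile normalization gave 16 and 10 for fasted over water, 6 lower for fasted over glucose, and 26 and 6 for fasted over fructose. The authors' series table gave 13 and 19 with a median of -0.042 for fasted over water, 2 lower and -0.101 for glucose, -0.046 for fructose, 29 and 10 with 0.064 for fasted over glucose, and 19 and 15 with 0.014 for fasted over fructose. Centring on the array median gave 15 higher for fasted over water and 0 lower for glucose. Cyclic loess, chosen after seeing the data, gave medians of -0.123 for glucose and -0.043 for fructose, and 5 lower for fasted over fructose. Array weights gave 18 lower for glucose and 1 for fructose, an intensity trend 12 and 1, no filter on dim probes 2 lower for glucose, and normexp 1 lower for fructose over glucose. Fits on 1 slide, with 2 mice a group and so fewer samples, gave on slide 1 4 and 0 for fasted over water, 0 and 0 for glucose with a median of -0.094, 20 and 1 for fasted over glucose and 17 and 0 for fasted over fructose; on slide 2, 2 and 1 with -0.049, 0 and 0 with -0.197, -0.167 for fructose, 2 and 1, and 4 and 0; on slide 3, 6 and 0, 0 and 0, -0.002 for fructose, 0.123 for fructose over glucose, 23 higher for fasted over glucose, and 9 and 1 for fasted over fructose. Single members changed sign under quantile normalization and in the series table: for fasted over water Uqcrh (-0.005 and -0.024), Cox5a (-0.137 and -0.145) and Cox8a (-0.038 and -0.093); for fasted over fructose Cox4i1 (-0.036 and -0.132) and Cox6a1 (-0.095 and -0.052). Under quantile normalization alone Cox6a1 turned to -0.011 for fasted over glucose. In the series table alone, Cox4i1 turned to -0.05 for fasted over water, Cox4i1 and Atp5g2 to -0.096 and -0.03 for fasted over glucose, and Cox8a, Ndufa4 and Atp5g2 to -0.048, -0.016 and -0.123 for fasted over fructose. The cause was not tested. Signal over background limits Cox7b2 and Cox8b, above background on 8 and 10 arrays.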

Other observations

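The median over members of fasted mouse 2 lay below those of the other 5 fasted mice under each scaling tried for it: it was -0.168 with quantile normalization, where the others lay between 0.076 and 0.16, -0.179 in the authors' series table, where they lay between 0.007 and 0.089, and -0.183 with centring on the array median, where they lay between 0.067 and 0.241.

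Cox6a2, the heart and muscle isoform of subunit 6a, had group means of -3.45 in fasted mice, -2.06 in glucose mice, -2.83 in fructose mice and -3.11 in water mice (SD 0.285, 0.348, 0.203 and 0.259, n = 6 each). The glucose mice overlapped with no other group, while the fructose and water mice overlapped with each other and with fasted mice. The log2 difference of Ndufa4l2 from water mice was -0.45 in fasted mice, -0.39 in glucose mice and -0.35 in fructose mice, and of these comparisons, which share the water mice, that of fasted mice passed the threshold (adjusted p = 0.00752, 0.188 and 0.176).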
